A study of Homo sapiens with 6 samples.

Results

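The RNAs described here are 8 short noncoding RNAs: RMRP, RPPH1, RN7SK (7SK), RN7SL1, RN7SL2 (both 7SL), TERC, SNORD3A (U3) and SCARNA2. They were taken as every row of the read table that carried one of these 8 symbols, which gave 8 of 26899 rows. Of these, 7 were among the 15299 genes that passed the low-count filter, and SCARNA2 did not pass. The set was selected on earlier results of the same contrast, in which RMRP stood out once a library was left out, so the difference between groups is given below as a description with no test.

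The libraries came from HK-2, a human kidney proximal tubule epithelial line transformed with human papillomavirus 16. All cells were grown alike and transfected with plasmid by lipid reagent, with 3 libraries labelled ANXA2 knockdown (descriptions shANXA2) and 3 labelled wild type (descriptions shCtrl), the controls. Total RNA was passed over oligo(dT) beads to keep polyadenylated RNA, and strand-specific libraries were then primed with random hexamers. Nothing in the labels said whether replicates were separate cultures, so p-values measure the spread between these libraries only.

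Read totals per library ran from 24231267 to 34561675. ANXA2, the targeted gene, was at 1598 ± 119 CPM in the control-labelled libraries and 1539 ± 21.3 CPM in the knockdown-labelled libraries (mean ± SD, n = 3 each), a log2 fold change of -0.05 with SE 0.075 (edgeR adjusted p = 0.848). CPM is a count scaled to library size after TMM scaling, which corrects library totals for composition. The transcript was not detectably lower, so it did not bear out the labels, and the groups are called by their labels throughout. The epithelial keratin KRT8 averaged 1161 CPM and the kidney transcription factor PAX8 517 CPM. Among the proximal tubule markers, GGT1 averaged 239 CPM and MME 5.77 CPM. The others, SLC34A1, CUBN, ANPEP, AQP1 and LRP2, were at 0.462, 0.182, 0.0953, 0.0195 and 0.00535 CPM. PTPRC and CD3E had no row in the table used here, and the 4 leukocyte and fibroblast markers with a row summed to between 6.37 and 13.1 CPM per library.

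RMRP, RPPH1, 7SK and 7SL are made by RNA polymerase III, which ends transcription at short runs of T in the coding strand and adds no poly(A) tail. RMRP and RPPH1 are the RNA subunits of the endonucleases RNase MRP and RNase P, which process ribosomal and transfer RNA precursors, 7SK holds the elongation factor P-TEFb in an inactive complex, and 7SL is the scaffold of the signal recognition particle. TERC, the telomerase template RNA, SNORD3A, the U3 snoRNA of ribosome assembly, and SCARNA2, a guide RNA of Cajal bodies, are made by RNA polymerase II, and their mature forms also lack a long poly(A) tail.

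The 3′ ends are shown because these RNAs had to pass oligo(dT) beads to be counted. Each line holds the last 10 bases of the RefSeq gene and the 30 bases after it on the same strand (GRCh38), with the first run of 4 or more T in capitals.
RMRP: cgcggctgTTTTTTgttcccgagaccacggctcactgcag
RPPH1: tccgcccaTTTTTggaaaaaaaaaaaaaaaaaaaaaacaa
RN7SK: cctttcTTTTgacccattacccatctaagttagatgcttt
RN7SL1: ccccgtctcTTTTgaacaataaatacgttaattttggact
RN7SL2: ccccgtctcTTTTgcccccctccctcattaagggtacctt
SNORD3A: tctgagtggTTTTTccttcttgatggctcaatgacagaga
TERC: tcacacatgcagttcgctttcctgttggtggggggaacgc
SCARNA2: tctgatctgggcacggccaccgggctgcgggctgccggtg
Runs of 4 or more T (TTTT, searched on the RNA's own strand) were found in 6 of the 8 windows, in each of the 5 polymerase III RNAs and in SNORD3A, and not in those of TERC and SCARNA2. The same search found the run in 36.5% of 40151 RefSeq genes, so the match is a description of these ends only. In the RPPH1 window a genomic run of 22 A followed the T run, while the longest A run in the windows of the other RNAs was 3 bases. Windows lay at chr9:35657720-35657759 for RMRP (minus strand), chr14:20343041-20343080 for RPPH1 (minus), chr6:52995942-52995981 for RN7SK (plus), chr14:49586869-49586908 for RN7SL1 (plus) and chr14:49862521-49862560 for RN7SL2 (minus). Those of the other RNAs were chr17:19188223-19188262 for SNORD3A (plus), chr3:169764580-169764619 for TERC (minus) and chr1:109100603-109100642 for SCARNA2 (plus).

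RMRP itself is printed whole (GENCODE 44, chr9:35657754-35658017, minus strand, 264 bases), with its longest run of A in capitals, because it is the RNA whose libraries differed most between groups.
RMRP: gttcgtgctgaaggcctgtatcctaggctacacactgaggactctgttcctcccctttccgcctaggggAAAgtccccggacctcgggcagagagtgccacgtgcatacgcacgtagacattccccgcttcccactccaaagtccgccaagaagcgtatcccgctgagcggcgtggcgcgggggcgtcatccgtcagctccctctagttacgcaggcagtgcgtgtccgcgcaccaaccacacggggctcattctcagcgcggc
This run is 3 A long, and 98.2% of annotated transcripts hold a run at least as long. In the GENCODE 44 sequences of the others, the longest runs were 2 A in RPPH1, 3 in RN7SK and 4 in RN7SL1, RN7SL2, SNORD3A and SCARNA2. TERC held a run of 6, matched or exceeded in 43.1% of transcripts.

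Which transcript a row counted mattered for several of these RNAs. Lengths implied by the ratio of the deposited reads to the deposited FPKM (fragments scaled to transcript length and library size) fell within 2% of the annotated length in 100.0% of 286 genes with 1 transcript length. By this measure the row with the symbol RN7SL2 counted a model of 80 bases, typed as a miRNA, while the gene that GENCODE 44 calls RN7SL2 stood in a row named Metazoa_SRP with the implied full length of 300 bases. That row was named after its values were seen and is not among the 8. Similarly, the RPPH1 row matched an antisense model of 638 bases (chr14:20343048-20343685, minus strand) that covers the 333-base RPPH1 and overlaps the start of PARP2. Its 3′ end lies inside the genomic run of 22 A shown above. The longest A runs given above for RPPH1 and RN7SL2 are thus those of the GENCODE 44 RNAs, not of the counted models. SNORD3A's row implied 697 bases, longer than the U3 gene of RefSeq at chr17:19188016-19188232, and TERC's row implied 541 bases, longer than the RefSeq gene at chr3:169764610-169765060. Rows for RMRP (268 bases implied), RN7SK (331), RN7SL1 (299) and SCARNA2 (421) were within a few bases of GENCODE 44.

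Reads of several of these RNAs can also match other loci. Of the windows of 50 bases in RN7SL1, 84.4% were found in another annotated transcript under 1000 bases long, as were 86.5% in RN7SL2, 77.1% in RN7SK and 92.9% in SNORD3A. For RMRP, RPPH1, TERC and SCARNA2 the share was 0%. These shares are of the GENCODE 44 RNAs, so they do not describe the 80-base RN7SL2 row or the 638-base RPPH1 row. How reads with several matches were counted was not given in the sources used here, so the split among 7SL, 7SK and U3 copies is uncertain.

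RMRP had 36, 25 and 28 reads in control-labelled replicates 1, 2 and 3 and 398, 56 and 252 reads in knockdown-labelled replicates 1, 2 and 3. In CPM these were 1.48, 0.765 and 0.899 against 11.7, 1.70 and 8.73. Every knockdown-labelled library was above every control-labelled library, but replicate 2 was close to the controls and replicates 1 and 3 were far above them. Group means were 1.05 ± 0.378 CPM and 7.36 ± 5.12 CPM (SD, n = 3 each), and the fitted log2 fold change was 2.83 with SE 0.625. RMRP was the only one of the 8 RNAs whose groups did not overlap; 7.94% of all genes tested did so in the higher direction and 7.7% in the lower direction. No gene in the whole table, 0% of 15299, passed an adjusted p of 0.05 in edgeR, 1251 genes had an unadjusted p under 0.05, and DESeq2 called 31. In bulk RNA, a change in the number of expressing cells and a change in RNA per cell cannot be told apart.

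RPPH1, the RNase P counterpart of RMRP, was at 1.35, 0.306 and 0.770 CPM in the control-labelled libraries and 3.96, 0.545 and 3.43 CPM in the knockdown-labelled libraries. Replicates 1 and 3 of the knockdown label were the highest, while replicate 2 lay below 2 of the 3 controls. The means were 0.810 ± 0.525 and 2.64 ± 1.84 CPM, a log2 fold change of 1.73 with SE 0.725. PARP2, whose start overlaps the counted model on the other strand, was at 36.4 ± 5.79 and 33.9 ± 2.44 CPM (edgeR log2 fold change -0.10, adjusted p = 0.838).

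RN7SK was at 8.77, 3.43 and 3.72 CPM under the control label and at 28.6, 5.06 and 25.01 CPM under the knockdown label. Again replicates 1 and 3 of the knockdown label were highest, and replicate 2 was below control-labelled replicate 1. Means were 5.31 ± 3.005 and 19.5 ± 12.7 CPM, with a log2 fold change of 1.89 and SE 0.587.

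RN7SL1 had the most reads of the 8, from 260 to 1064 per library, or 17.1, 7.95 and 8.67 CPM under the control label and 31.2, 9.72 and 23.3 CPM under the knockdown label. The order of the libraries was that of RN7SK, and the groups overlapped through control-labelled replicate 1. Means were 11.2 ± 5.06 and 21.4 ± 10.9 CPM, and the log2 fold change was 0.94 with SE 0.414. The 80-base RN7SL2 row was at 3.44, 1.44 and 2.22 CPM against 7.77, 1.70 and 4.81 CPM, a log2 fold change of 1.02 with SE 0.516. Here knockdown-labelled replicate 2 lay below control-labelled replicates 1 and 3. In the row that holds full-length RN7SL2, the levels were 24.0, 5.69 and 7.58 CPM against 30.4, 6.24 and 22.7 CPM, and control-labelled replicate 1 was the second highest library. The groups of that row overlapped, and the log2 fold change was 0.68 with SE 0.613 (edgeR adjusted p = 0.759).

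The 3 RNAs made by polymerase II had few reads. TERC had between 4 and 17 reads per library, at 0.697, 0.122 and 0.449 CPM under the control label and 0.498, 0.121 and 0.242 CPM under the knockdown label. Its groups overlapped fully, with a log2 fold change of -0.52 and SE 0.776. SNORD3A had 5 to 19 reads, at 0.410, 0.153 and 0.610 CPM against 0.410, 0.394 and 0.623 CPM, with groups that overlapped and a log2 fold change of 0.28 with SE 0.623. SCARNA2 had 25 reads in all, 14 of them in knockdown-labelled replicate 1 and 2 or 3 in each of the other libraries, and was not fitted. At this depth the SE of TERC and that of SNORD3A each exceeded the size of its own estimate.

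**Figure D1:**
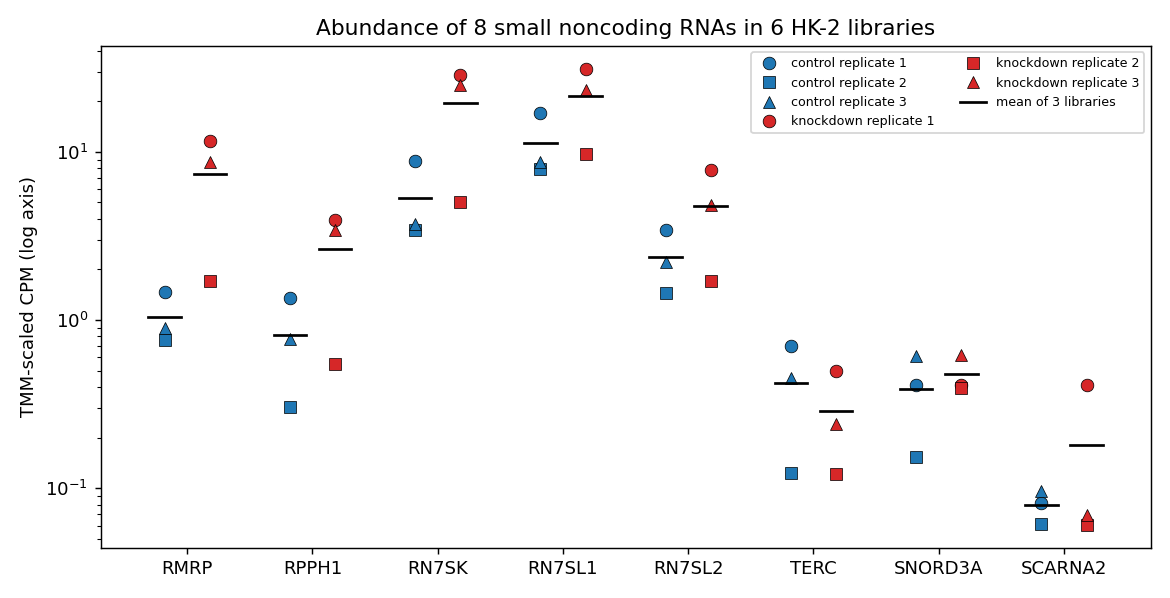
TMM-scaled CPM of the 8 RNAs on a log axis, with a point per library (blue control-labelled, red knockdown-labelled, marker shape the replicate number) and a bar at the mean of 3 libraries. Knockdown-labelled replicates 1 and 3 lie above the other libraries for the 5 polymerase III RNAs, and replicate 2 lies among or just above the controls.

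Per length, the mean FPKM over the 6 libraries placed RN7SL1 highest at 51.4, followed by the 80-base RN7SL2 row at 41.9, RN7SK at 35.3, RMRP at 14.8, RPPH1 at 2.55, TERC at 0.618, SNORD3A at 0.585 and SCARNA2 at 0.290. Neighbours in this order did not separate beyond their spread where their ranges crossed. RN7SL1 ran from 25.51 to 97.46 FPKM and RN7SK from 9.93 to 80.67, while RMRP ran from 2.74 to 40.67. TERC and SNORD3A covered 0.21 to 1.21 and 0.21 to 0.84 FPKM. The level of RPPH1 is spread over a model longer than the RNA itself.

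The polymerase III RNAs varied far more among libraries of the same label than most genes did. Across the 8 RNAs, the SD of log2 CPM within groups lay between the 96.83 and 99.54 percentiles of 13223 tested genes of at least 1 CPM, whose median SD was 0.196. Several of the 8 are less abundant than those genes, and counting error adds to their SD. From the lowest to the highest library, RMRP spanned 15.2-fold, RPPH1 12.9-fold, RN7SK 8.34-fold, RN7SL2 5.40-fold and RN7SL1 3.92-fold.

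Within each label, most of the 8 RNAs ranked the replicates in the same order, though the order over all 6 libraries differed among them. Pearson r of log2 CPM over the 6 libraries was 0.895 to 0.982 for pairs of the polymerase III RNAs. For pairs with TERC, SNORD3A or SCARNA2 it was 0.169 to 0.772. Control-labelled replicates ranked 1, 3, 2 from high to low in 6 of the 8 RNAs, and knockdown-labelled replicates ranked 1, 3, 2 in 7 of them. The 7 include SCARNA2, which had 2 reads in each of knockdown-labelled replicates 2 and 3. Only library scaling put replicate 3 above replicate 2 there. Both orders held together in RMRP, RPPH1, RN7SK, RN7SL1, RN7SL2 and TERC, 6 of the 7 that were tested, and in 2.76% of all 15299 genes tested. This order was read from the RNAs themselves, so its share among them is a description and not a test. The summed level of the 8 was 33.3, 14.2 and 17.4 CPM under the control label and 84.5, 19.3 and 66.3 CPM under the knockdown label.

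The proportions of these RNAs were also compared within each library. RMRP made up 14.4% (95% Wilson interval 10.6 to 19.3), 18.2% (12.7 to 25.6) and 19.4% (13.8 to 26.7) of the reads of RMRP and RN7SK combined in control-labelled replicates 1, 2 and 3. In knockdown-labelled replicates 1, 2 and 3 the share was 29.0% (26.6 to 31.4), 25.1% (19.9 to 31.2) and 25.9% (23.2 to 28.7). The groups of this share did not overlap, replicate 2 of the knockdown label included, but the intervals of all 3 knockdown-labelled libraries crossed that of control-labelled replicate 3. RMRP was chosen on these data and no background over other gene pairs was computed, so this is a description and not a test. For RPPH1 against RN7SK the shares overlapped, at 13.4%, 8.20% and 17.1% against 12.2%, 9.73% and 12.1%. RN7SL1 made up 66.0%, 69.9% and 69.9% of the reads of RN7SL1 and RN7SK combined under the control label and 52.2%, 65.8% and 48.3% under the knockdown label, a smaller share in knockdown-labelled replicates 1 and 3 than in any other library. The intervals cover counting error only.

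**Figure D2:**
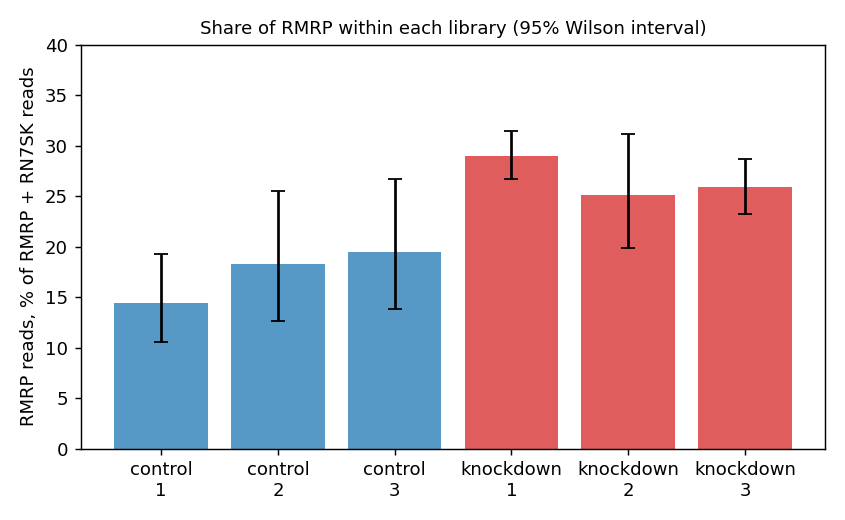
RMRP reads as a percentage of RMRP and RN7SK reads in each library, with 95% Wilson intervals (blue control-labelled, red knockdown-labelled). The control-labelled libraries run from 14.4% to 19.4% and the knockdown-labelled libraries from 25.1% to 29.0%.

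Leaving out libraries moved these estimates. Without knockdown-labelled replicate 2, the log2 fold change of RMRP was 3.30, and 5 of the 8 RNAs, all higher, had groups that did not overlap. With 3 libraries against 2, 13.4% of the 15712 genes tested in that fit did so in the higher direction and 12% in the lower direction. That fit called 4 genes in the whole table (0.0255%), RMRP and the interferon-induced genes OAS1, OAS2 and ISG15, which is the result that drew attention to RMRP. Without knockdown-labelled replicate 1 the log2 fold change of RMRP was 2.32. When knockdown-labelled replicate 2 alone was set against the 3 controls, a comparison added after the data were seen, RMRP was at 0.70 while RPPH1, RN7SK, RN7SL1 and RN7SL2 were at -0.55, -0.06, -0.20 and -0.47. The positive estimates of the last 4 RNAs thus came from replicates 1 and 3 of that label.

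**Figure D3:**
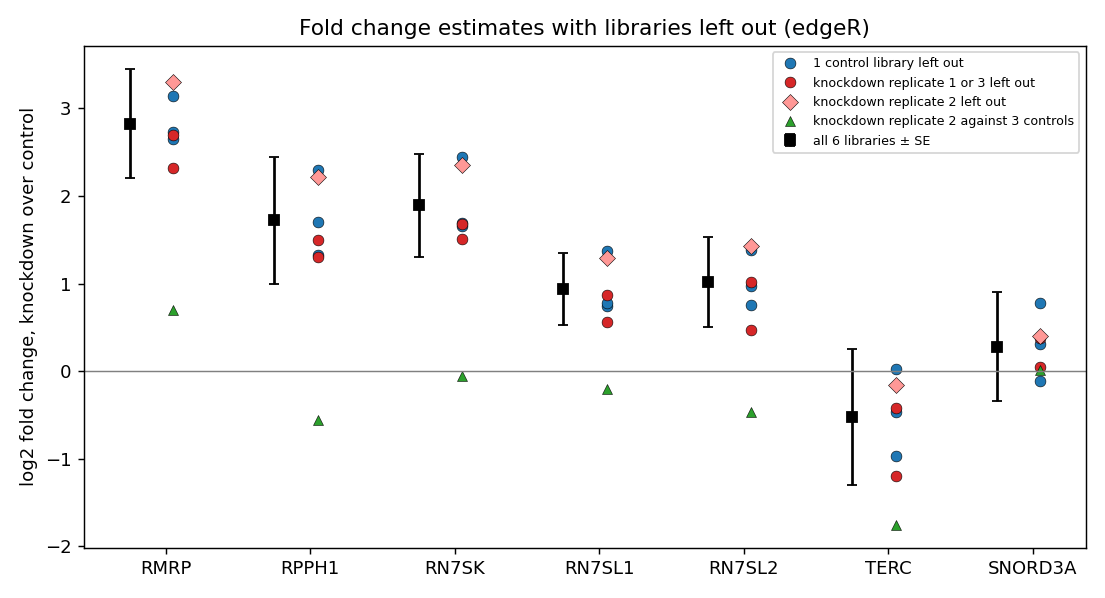
Log2 fold change, knockdown-labelled over control-labelled, for the 7 RNAs fitted, from all 6 libraries (black, ± SE) and with libraries left out (colours as in the key). RMRP stays above 0 in each fit, from 0.70 to 3.30, and 4 of the other RNAs change sign in the fit of knockdown-labelled replicate 2 alone against the controls.

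Other RNAs without a long poly(A) tail were compared as lists. The list of replication-dependent histone genes, whose mRNAs mostly end in a stem-loop, summed to 66.2, 45.0 and 48.3 CPM under the control label. Under the knockdown label it summed to 66.9, 46.0 and 68.8 CPM. The list also holds pseudogene rows, such as HIST2H2BC at 0.322 CPM on average. Whether the counted histone reads came from RNA without a poly(A) tail was not tested. The same 3 libraries were high for histone mRNA as for RN7SK, namely knockdown-labelled replicates 1 and 3 and control-labelled replicate 1. Of 31 histone genes tested, 22 had an estimate above 0 (median 0.33 on the log2 scale), and 4 had both library orders given above. The most abundant were HIST1H2BK, a core histone H2B gene, at 15.05 CPM and HIST1H1C, a linker histone gene, at 7.14 CPM. HIST1H1C had a log2 fold change of 0.50 (edgeR adjusted p = 0.615) and HIST1H2BC, another H2B gene, one of -0.58 (adjusted p = 0.765).

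Small nucleolar and spliceosomal RNAs were at low levels in all 6 libraries. Box C/D snoRNA genes summed to between 8.27 and 10.0 CPM per library, box H/ACA genes to between 12.3 and 14.5 CPM, scaRNA genes to between 2.28 and 2.95 CPM and spliceosomal snRNA genes to between 2.58 and 4.01 CPM. Annotated copies of 7SL and 7SK summed to 6.11, 7.59 and 5.75 CPM against 6.51, 5.12 and 6.75 CPM, and the most abundant copies were RN7SL832P at 1.05 CPM and RN7SKP269 at 0.272 CPM. SNORD22 and SNORD3B-1 led the box C/D genes at 0.731 and 0.649 CPM, SNORA61 and SNORA70 the H/ACA genes at 1.61 and 1.19 CPM, SCARNA12 and SCARNA15 the scaRNA genes at 0.870 and 0.494 CPM, and RNU12 and RNU6-513P the snRNA genes at 0.232 and 0.195 CPM. The log2 fold changes were 0.09 for SNORA61, 0.48 for the most abundant SNORA70 row and -0.22 for RN7SL832P, with adjusted p of 0.946, 0.723 and 0.917.

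The mitochondrial ribosomal RNA MT-RNR1 was at 4204, 2260 and 3096 CPM against 3042, 2237 and 3868 CPM, with groups that overlapped. MT-RNR2 was lower in each knockdown-labelled library (edgeR log2 fold change -0.33, SE 0.0836, adjusted p = 0.599). Among the other polymerase III RNAs only the row named BCYRN1 passed the filter, and its implied length of 13491 bases is that of a longer model than the short BC200 RNA. Its levels were 402, 199 and 126 CPM against 153, 95.3 and 211 CPM, with groups that overlapped and a log2 fold change of -0.66 (adjusted p = 0.660). The log2 level of the summed list, nearly all of it this row and not drawn in the plot of lists, ran from -0.89 to 1.18 around its mean. The remaining rows of that list, vault RNA, Y RNA, U6 and 5S rRNA genes, were at or under 0.141 CPM on average.

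Over all lists of such RNAs, 0 of 54 tested genes passed the threshold in edgeR, 1 had an unadjusted p under 0.05, and DESeq2 called 0. Groups did not overlap for 1 gene in the higher direction and 2 in the lower direction, or 1.85% and 3.70% of those tested. Over all genes the shares were 7.94% and 7.7%. Many of the 54 rest on few reads, where counting error adds to the spread, so these shares are a description only. Whether carry-over of RNA without a poly(A) tail had a part in the levels of RMRP, 7SK and 7SL was not tested.

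**Figure D4:**
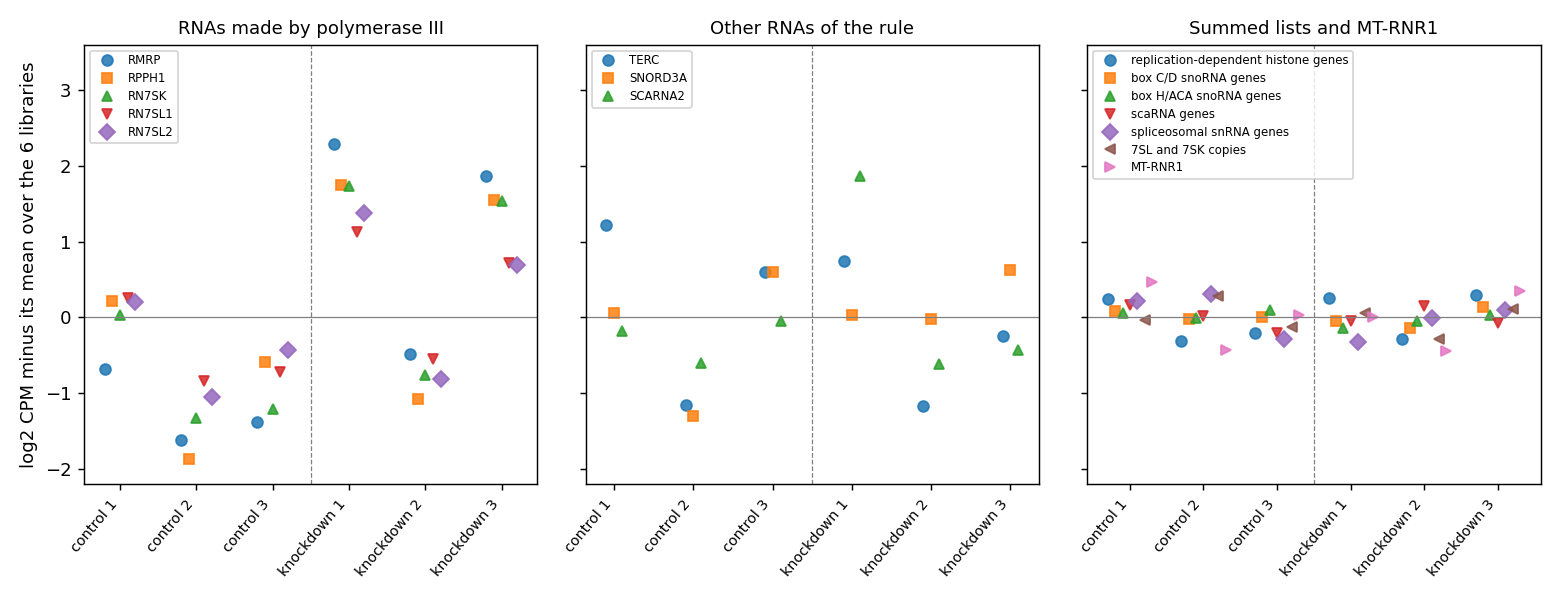
Log2 CPM in each library minus its mean over the 6 libraries, for the 5 polymerase III RNAs (left), the 3 other RNAs (middle), and the summed levels of lists of RNAs without a long poly(A) tail and MT-RNR1 (right), with control- and knockdown-labelled libraries split by the dashed line. RMRP, RPPH1, RN7SK, RN7SL1 and RN7SL2 are all highest in knockdown-labelled replicates 1 and 3, and the 6 lists drawn lie between -0.33 and 0.31.

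The protein partners of these RNAs played no part in choosing them, and none passed the test. Over the partner and polymerase III lists, 77 of the 79 genes with a row were tested. In edgeR 0 passed an adjusted p of 0.05 and 5 had an unadjusted p under 0.05, and DESeq2 called 0. The median log2 fold change was 0.03, against -0.01 for all genes tested, and the estimates ran from -0.59 to 0.39. Groups did not overlap for 6 genes in each direction, 7.79% of those tested, beside 7.94% higher and 7.7% lower over all genes.

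RNase P and RNase MRP share most of their proteins. Of 11 listed, 10 had a row and were tested, with 6 above 0 and a median estimate of 0.04 on the log2 scale. RPP25 and RPP38, both RNA-binding subunits, had the largest estimates at 0.21 each, with adjusted p of 0.625 and 0.802. Levels of RPP25 were 56.2, 52.8 and 49.2 CPM against 62.1, 55.7 and 65.5 CPM, so its groups overlapped.

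Of 7 genes of the 7SK particle and P-TEFb, 1 was above 0, and their estimates had a median of -0.09. CCNT1, the cyclin of P-TEFb, was at 25.8, 30.7 and 27.1 CPM against 21.7, 24.3 and 21.0 CPM, lower in all 3 knockdown-labelled libraries, but its log2 fold change of -0.32 did not pass the test (adjusted p = 0.605). HEXIM2, an inhibitor of P-TEFb that binds 7SK, had an estimate of 0.36 (adjusted p = 0.709).

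Of 9 listed genes of the signal recognition particle and its receptor, 8 had a row and were tested. Among these 8, 1 was above 0, with a median of -0.08. SRP19, which binds 7SL, was at 7.58, 10.6 and 7.42 CPM against 5.39, 6.27 and 5.40 CPM. Its groups did not overlap, and its log2 fold change of -0.59 with SE 0.202 had an adjusted p of 0.599. SRP9, of the Alu domain, was at 240 ± 21.7 and 191 ± 34.6 CPM, an estimate of -0.33 (adjusted p = 0.605).

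Of 9 listed box C/D and U3 protein genes, 8 had a row. All 8 had an estimate above 0, with a median of 0.15, but 0 passed the threshold. Over all 15299 genes tested, 7495 had an estimate above 0. Groups of 4 of the 8 did not overlap, all in the higher direction, in which 7.94% of all genes did not overlap. RRP9, a U3-specific protein, was at 38.5, 35.1 and 42.2 CPM against 47.6, 45.4 and 50.6 CPM, a log2 fold change of 0.31 (adjusted p = 0.599). NOP56, a core box C/D protein, had an estimate of 0.18 (adjusted p = 0.631). In the telomerase and H/ACA list, 5 of 8 tested genes were above 0 with a median of 0.03, led by DKC1, the pseudouridine synthase dyskerin, at 0.19 and PARN, a nuclease that trims TERC, at -0.15. Among 6 Cajal body genes 4 were above 0, and GEMIN2, of the SMN complex, was at 0.29 (adjusted p = 0.631). SMN1 had an estimate of 0.14, and its reads cannot be told from those of its near-identical copy SMN2.

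RNA polymerase III itself was represented by 10 genes, 5 of them above 0, and the median estimate was 0.03. POLR3GL, an alternative subunit of the enzyme, was at 6.35, 4.65 and 5.59 CPM against 6.48, 6.84 and 8.42 CPM, and its estimate of 0.39 had an adjusted p of 0.631. POLR3D had an estimate of 0.29 (adjusted p = 0.611). Of 20 initiation factors and regulators 11 were above 0, and the median was 0.02. GTF3C3, a TFIIIC subunit, was at 53.4 ± 2.79 and 41.7 ± 4.84 CPM, an estimate of -0.36 (adjusted p = 0.599), and SNAPC4, of the complex that binds the promoters of 7SK and RMRP, had an estimate of 0.27 (adjusted p = 0.631).

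**Figure D5:**
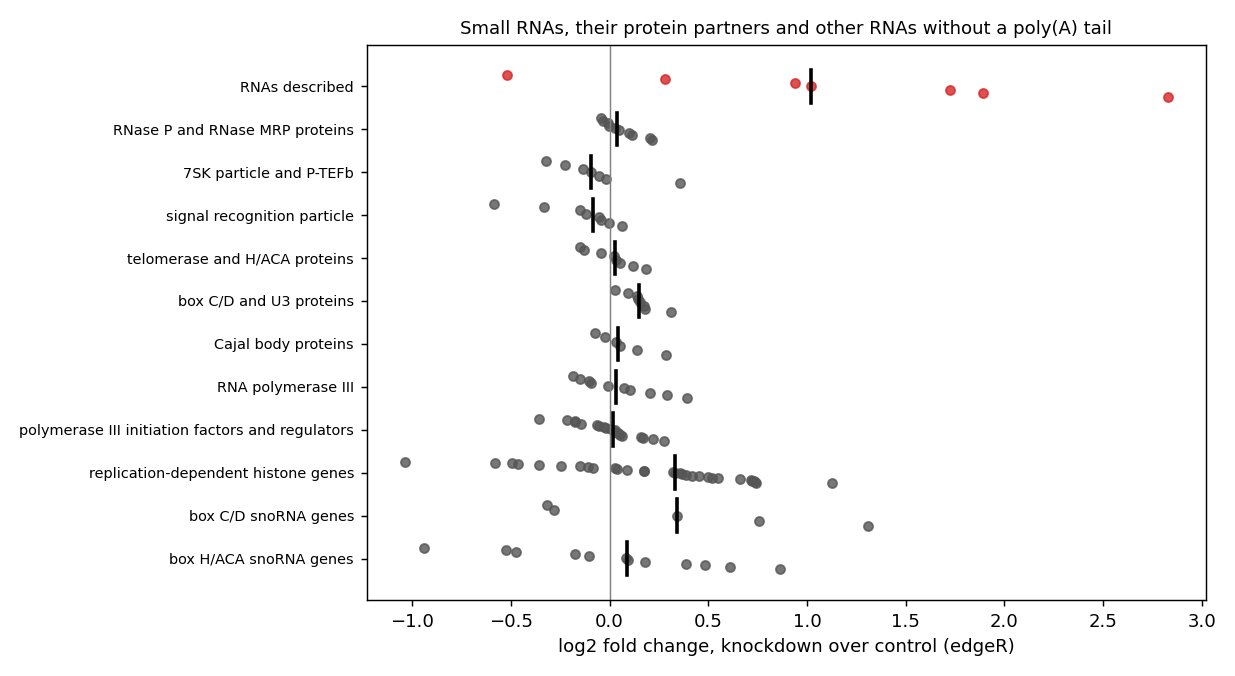
Log2 fold change, knockdown-labelled over control-labelled, of the 7 RNAs fitted (red) and of each tested gene in the lists of protein partners and of other RNAs without a long poly(A) tail (grey), with a bar at each median. The median of the 7 RNAs is 1.02 and those of the partner lists lie between -0.09 and 0.15.

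The tested genes whose log2 CPM followed RMRP most closely over the 6 libraries were SDF4 (Pearson r = 0.992), NDUFS7 (0.990), IFIT2 (0.983), HCN2 (0.982) and MFSD5 (0.982). For RN7SK they were GPX1P1 (0.996), MYLK-AS1 (0.993), NDUFC1 (0.992), LLNLR-304A6.2 (0.992) and CMTM7 (0.984). Among 15292 genes compared, 38 had r over 0.95 with RMRP and 30 with RN7SK. With 6 libraries shared by every pair, 2 of them high, these correlations are descriptions and could not be tested.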

How the data were processed

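RNA-seq of 6 HK-2 libraries was used. The authors deposited raw read counts per gene and a table of FPKM values; the submitters' notes name TopHat2, GRCh38 and edgeR without versions, while the counter, its annotation and the treatment of reads with several matches were, in the sources used here, not given. Groups came from the sample labels, and 0 sample columns were left unused. Counts were scaled by TMM, filtered by filterByExpr (minimum count 10, minimum total 15) and fitted with edgeR 4.0.16 (quasi-likelihood test, Benjamini-Hochberg adjustment over all genes tested, R 4.3.3) without a block; the fit was tested on simulated data. limma 3.58.1, DESeq2 1.42.0, other scalings, no filter, limma on log2(FPKM + 1) or log2(FPKM + 0.1), a replicate block and fits without each library were alternatives. Low levels rest on few reads: 3 reads correspond to between 0.0879 and 0.123 CPM. The RNAs and gene lists were chosen with earlier results of these data known. Named genes were the 8 RNAs, any list member past the threshold or else the 2 of at least 1 CPM with the largest absolute log2 fold change, the 2 most abundant of each list without poly(A) tails, and the 5 closest correlates of RMRP and RN7SK (log2 CPM with 0.5 reads added). Sequences came from GENCODE 44 and from GRCh38 at RefSeq coordinates, read with Python 3.11.15. A few items are not reported here.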

Additional observations from a re-analysis of the deposited data

How the results depend on the processing

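Over all genes, 0 passed the threshold in the reported fit, 165 without the low-count filter and 31 in DESeq2, and leaving out 1 library gave 0 to 4. Over the lists of other RNAs without a long poly(A) tail the count was 2 without the filter and 0 otherwise. The 2 were MT-RNR2 and the BCYRN1 row, whose implied length of 13491 bases is not that of the short BC200 RNA. Over the partner lists the count was 0 in every alternative. The number of the 8 RNAs whose groups did not overlap was 1, and 1 to 5 with a library left out (3 without control-labelled replicate 1, 5 without knockdown-labelled replicate 2). Without control-labelled replicate 1, 16% of all genes tested did not overlap in the higher direction and 15.7% in the lower. In the added comparison of knockdown-labelled replicate 2 with the 3 controls it was 3, beside 23.7% of genes higher and 23.6% lower. RMRP was higher, and TERC and SCARNA2 were lower, with 4 and 2 reads in that library. Control-labelled replicate 2 had the same read counts for both, so only library scaling put TERC and SCARNA2 below it. The median log2 fold change of the RNAs fitted, 1.02, ran from 0.56 to 1.43 with a library left out, and was -0.20 in that added comparison, where RPPH1 was at -0.55, RN7SK at -0.059, RN7SL1 at -0.20 and RN7SL2 at -0.47; the cause was not tested. With a library left out, TERC ran from -1.19 to 0.024 (without control-labelled replicate 1) and SNORD3A from -0.11 (without control-labelled replicate 2) to 0.78.

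Over all genes tested, replicate numbers showed no general pairing: deviations of same-numbered libraries from their group means correlated at -0.0594, 0.103 and -0.189. For 6 of the RNAs described, the order of replicate numbers was the same in both groups, as in 2.76% of all genes tested. That order was read from these RNAs, which vary together, so it is a description and not a test of pairing. Whether same-numbered libraries were prepared together was not tested. With a replicate block the count over all genes was 0 and the median log2 fold change of the RNAs was 0.87. TERC and SNORD3A, at 4 to 19 reads per library, are limited by depth.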
